A study of Mus musculus with 2 samples.

Results

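The cells described here are uterine epithelial barcodes that carried transcripts of Slc5a11, Lrp2, Arvcf, Slc51a and Jam2, and they are called Lrp2/Slc5a11 cells. They were chosen by the measured UMIs of these genes. A barcode is the tag that marks 1 captured cell, and a UMI is 1 counted transcript molecule. Barcodes with at most 10% mitochondrial UMIs were kept if their summed UMIs of 6 epithelial genes (Epcam, Cdh1, Cldn3, Cldn7, Elf3 and Esrp1) exceeded those of 5 stromal genes (Col1a1, Col1a2, Col3a1, Pdgfra and Hoxd10). Among these, a barcode was an Lrp2/Slc5a11 cell if it held at least 2 UMIs of the 5 defining genes and more of them than of each of 4 rival sets of 5 genes. The rival sets mark Muc4/Ptpn22 cells, Ltf/Clca3b cells, Syn2 cells and cycling cells. The rule found 1272 cells among 7908 barcodes, of which 1204 came from the Erbb3 f/f library and 68 from the Erbb3 d/d library.

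Endometrium was taken on day 3 of pregnancy from mice with intact floxed Erbb3 alleles (Erbb3 f/f, the control) and from mice in which Erbb3 was deleted in the stroma (Erbb3 d/d), and each genotype is 1 library of fixed, dissociated cells. Erbb3 encodes a receptor of the epidermal growth factor receptor family that binds neuregulins, and the comparison asks how its stromal loss is reflected in single-cell transcriptomes. The transgene that drives the deletion and the number of mice behind each library are not given in the sources used here. With 1 library a group no difference between genotypes can be set against the spread between animals, so none has a p-value, and every interval below covers counting error only.

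The luminal epithelium is the sheet of polarised cells that faces the uterine cavity and later receives the embryo, while glands open from it into the stroma. In early pregnancy rising progesterone ends its estrogen-driven growth and turns it towards transport and secretion. Lrp2 (megalin) is a very large endocytic receptor of the apical membrane that takes up carrier proteins for vitamins, lipids and steroids. Slc5a11 is a sodium-coupled transporter of myo-inositol, Slc51a is a subunit of the basolateral exporter of bile acids and steroid conjugates, Arvcf is a catenin that binds cadherins, and Jam2 is an adhesion molecule of cell junctions.

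The Erbb3 f/f library held 5783 barcodes with 6819591 UMIs (median 821 per barcode) and the Erbb3 d/d library 2125 barcodes with 2866862 UMIs (median 791). After the mitochondrial limit 5503 and 1830 barcodes remained, of which 2191 and 807 were epithelial by the rule. The libraries shared the cell part of 158 barcodes, but no full barcode. Erbb3 itself had 56 UMIs in f/f stromal cells, which is 26.1 CPM (UMIs scaled to 1000000 per class), against 6 UMIs and 10.3 CPM in d/d stromal cells. In the Lrp2/Slc5a11 cells Erbb3 stood at 97 UMIs (74.5 CPM) in f/f and at 0 UMIs in d/d, where 3 UMIs would be 49.7 CPM. Erbb3 UMIs were found in other d/d epithelial cells. Cycling cells stood at 53.3 CPM in d/d and 71.1 CPM in f/f. Muc4/Ptpn22 cells stood at 74.1 CPM in d/d and, on 4 UMIs, 38.7 CPM in f/f. Epithelial cells chosen by none of the sets stood at 39.7 CPM in d/d and 86.4 CPM in f/f. The intervals of each of these classes overlapped between the libraries. Whether the Erbb3 probes lie within the deleted part is not given in the sources used here.

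Lrp2/Slc5a11 cells made up 55.0% of the f/f epithelial barcodes (1204 of 2191, exact 95% binomial interval 52.8% to 57.1%) and 8.43% of the d/d epithelial barcodes (68 of 807, 6.60% to 10.6%). The difference, d/d minus f/f, was -46.5 points (-49.3 to -43.5), and the f/f share was 6.52-fold the d/d share. These cells defined the rule, so their shares are a description. They were the most numerous gate in f/f, and in d/d they came after cycling cells (35.6%) and Muc4/Ptpn22 cells (11.9%). Cycling cells were 7.99% and Muc4/Ptpn22 cells 4.70% of the f/f epithelium, so the order of these gates differed between the libraries. Barcodes that met no gate were 19.0% of the epithelium in f/f and 39.5% in d/d.

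**Figure D1:**
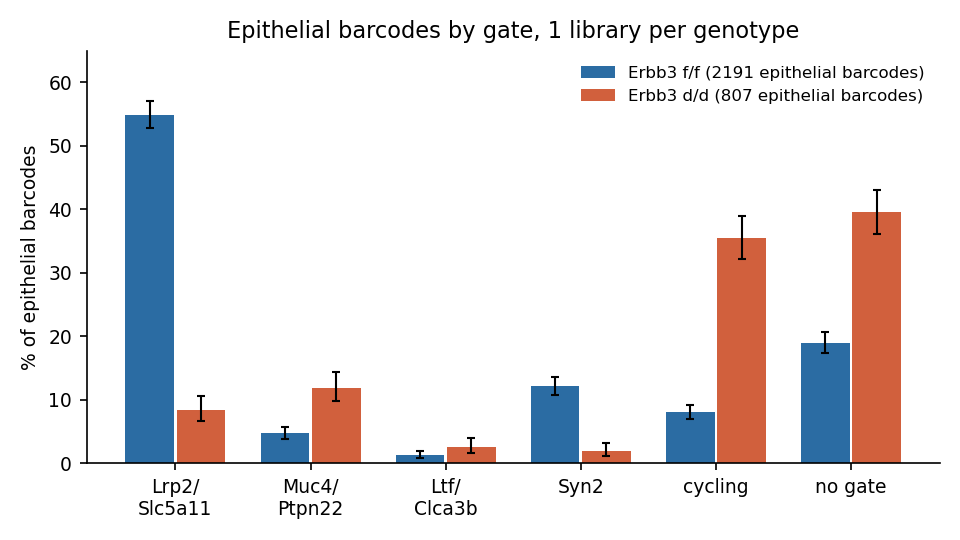
Share of epithelial barcodes (y axis, percent) that met each gate or none (x axis) in the Erbb3 f/f library (blue) and the Erbb3 d/d library (orange). Lines are exact 95% binomial intervals. The Lrp2/Slc5a11 bar is 55.0% for f/f against 8.43% for d/d, while the cycling bar is 7.99% against 35.6%.

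The lower share in d/d was present at every depth. Among barcodes with 500 to 700 UMIs the share was 44.4% in f/f against 9.03% in d/d. From 700 to 1000 UMIs it was 56.3% against 9.51%, and from 1000 UMIs upwards 61.1% against 6.77%. It increased with depth in f/f and not in d/d. With every barcode thinned to 500 UMIs the shares were 44.9% and 8.33%. Left without Jam2 the gate took 799 of 2191 epithelial barcodes in f/f but 26 of 807 in d/d.

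The summed UMIs of the 5 defining genes spread widely over the f/f epithelium and lay mostly at 0 in the d/d epithelium. The median epithelial barcode had 3 such UMIs in f/f against 0 in d/d. Barcodes with none were common in d/d, since 402 f/f barcodes (18.3%) and 561 d/d barcodes (69.5%) held no UMI of the set. Among the Lrp2/Slc5a11 cells themselves the median was 6 UMIs in f/f (highest 34) and 4 in d/d (highest 12). Just inside the minimum, 126 f/f and 12 d/d cells had exactly 2 UMIs. Just outside it, 47 f/f and 20 d/d barcodes had 1 UMI of the set and were not claimed by another, and 107 and 14 were tied with a rival set.

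**Figure D2:**
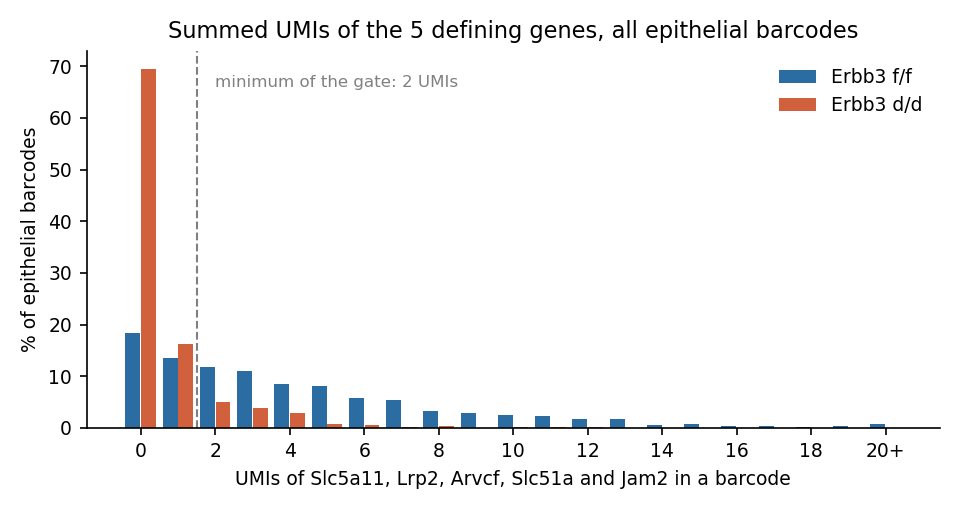
Summed UMIs of Slc5a11, Lrp2, Arvcf, Slc51a and Jam2 per epithelial barcode (x axis, the last bin holds 20 or more) against the share of epithelial barcodes (y axis, percent) in Erbb3 f/f (blue) and Erbb3 d/d (orange). The dashed line marks the gate's minimum of 2 UMIs. In d/d 69.5% of the barcodes stand at 0, against 18.3% in f/f.

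Transcripts of the 5 genes were also counted outside the epithelium. Of the f/f barcodes that were not epithelial by the rule, 692 of 3312 (20.9%, 19.5% to 22.3%, median 753 UMIs) would have met the same limits on the gene sets, and in d/d 61 of 1023 (5.96%, 4.59% to 7.59%, median 727 UMIs). In stromal cells alone the shares were 16.0% and 3.67%, in endothelial cells 19.1% and 6.38%, and in barcodes that no class could claim (no class leading with at least 2 marker UMIs and the stromal sum not above the epithelial) 39.2% and 10.2%. The f/f epithelial share of 55.0% lay above these f/f shares, but not above every other group. Of the f/f B and plasma cells 8 of 11 passed. Of f/f barcodes tied between the epithelial and stromal sums 122 of 251 did (48.6%, 42.3% to 55.0%), an interval that overlapped the epithelial one. The interval of the d/d epithelial share of 8.43% (6.60% to 10.6%) lay above that of d/d stromal cells (2.29% to 5.56%). It overlapped those of d/d endothelial cells, of the unclassed barcodes and of all non-epithelial barcodes together, of which 29 of the 61 that passed were unclassed. Both the epithelial and the non-epithelial level were lower in d/d. The part of free RNA in either was not tested.

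Most markers of the luminal epithelium were present in the Lrp2/Slc5a11 cells, though not all were high, and those of glands were low. The 7 luminal markers (Wnt7a, Calb1, Lpar3, Gabrp, Met, Vdr and Klf5) summed to 2383 CPM in f/f and 2485 CPM in d/d, and the same sum was 2225 CPM in f/f Muc4/Ptpn22 cells and 466 CPM in f/f Syn2 cells. In d/d the sum did not single these cells out, at 2118 CPM in Muc4/Ptpn22 cells and 3017 CPM in the 16 Syn2 cells. All 7 had UMIs in f/f, and Vdr was at 0 in d/d. Calb1, a calcium-binding protein that progesterone induces in this epithelium, carried most of the sum, at 2025 CPM in f/f and 2137 CPM in d/d. In f/f Vdr stood at 3.07 CPM against 47.0 CPM in Syn2 cells, and Gabrp at 12.3 CPM against 27.4 CPM in Syn2 and 48.4 CPM in Muc4/Ptpn22 cells. The 7 glandular markers (Foxa2, Cxcl15, Wfdc3, Spink1, Sox9, Prss28 and Prss29) summed to 46.1 CPM in f/f, against 372 CPM in f/f Syn2 cells, and all 7 were at 0 UMIs in the d/d cells. The 8 stromal markers summed to 222 CPM in f/f with all 8 detected and to 133 CPM in d/d with Lum, Pdgfrb, Hoxa10 and Hoxa11 at 0, against 3687 CPM in f/f stromal cells. Endothelial markers summed to 97.5 CPM and macrophage markers to 67.6 CPM in the f/f cells. The label of luminal epithelial cells matched the luminal sum and the low glandular sum in f/f, with Calb1 carrying the former. In d/d the label rested on few UMIs and on the glandular markers at 0, whose upper bound was 61.1 CPM.

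Jam2 and Lrp2 supplied most of the UMIs behind the gate. In f/f Jam2 gave 49.6% and Lrp2 29.3% of the defining UMIs, and in d/d 57.3% and 21.7%. In f/f 106 cells (8.80%) were in the gate through Jam2 alone and 945 of 1204 had an Lrp2 UMI. In d/d 26 of 68 (38.2%) were in through Jam2 alone and 28 had an Lrp2 UMI. With barcodes thinned to 500 UMIs, 57.2% of the f/f Lrp2/Slc5a11 cells held Lrp2 against 30.9% in d/d, while the stromal shares were 10.2% and 1.75%. Before thinning the median depths were 932 and 837 UMIs in the former and 786.5 and 770.5 UMIs in the stromal cells. The number of defining genes seen in a cell was 1 in 168 f/f cells, 2 in 450, 3 in 405, 4 in 167 and 5 in 14. In d/d it was 1 in 30 cells, 2 in 23, 3 in 10, 4 in 5 and 5 in 0. The d/d cells thus rested on fewer of the defining genes.

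The levels of the defining genes follow as a description, since the rule used them. Lrp2, the endocytic receptor, stood at 1794 CPM (2337 UMIs) in f/f and 1060 CPM (64 UMIs) in d/d Lrp2/Slc5a11 cells. In the other f/f epithelial cells Lrp2 was highest in cycling cells at 770 CPM, against 310 CPM in Muc4/Ptpn22 cells and 223 CPM in Syn2 cells, and it was 311 CPM in f/f stromal cells. In d/d it was 10.6 CPM (1 UMI) in Muc4/Ptpn22 cells and 63.5 CPM in stromal cells. Slc5a11, the inositol transporter, stood at 564 CPM (734 UMIs) in f/f and 365 CPM (22 UMIs) in d/d, and its level in f/f Syn2 cells was 23.5 CPM. Slc51a, the exporter subunit, stood at 127 CPM (166 UMIs) in f/f and at 33.1 CPM from 2 UMIs of a single cell in d/d. The other f/f gates and ungated epithelial cells were at 25.1 CPM of Slc51a or lower. Arvcf was 600 CPM (781 UMIs) and 630 CPM (38 UMIs), and Jam2 was 3042 CPM (3962 UMIs) and 2800 CPM (169 UMIs), in f/f and d/d. The intervals of Slc5a11, Slc51a, Arvcf and Jam2 overlapped between the libraries, and those of Lrp2 did not.

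**Figure D3:**
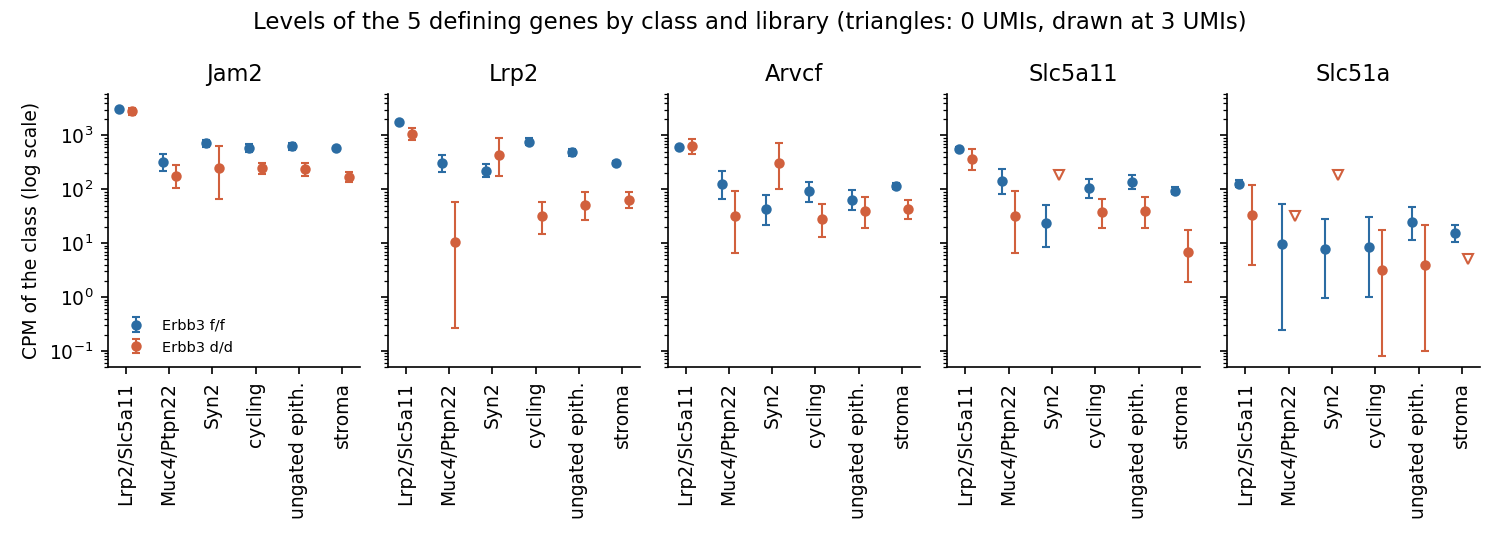
CPM of each defining gene (y axis, log scale) in 6 classes (x axis) of the Erbb3 f/f library (blue) and the Erbb3 d/d library (orange). Points are the class level and lines exact 95% Poisson intervals, and open triangles mark classes with 0 UMIs, drawn at 3 UMIs. In the Lrp2/Slc5a11 cells Lrp2 lies at 1794 CPM in f/f and 1060 CPM in d/d, and Arvcf at 600 and 630 CPM.

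Among all f/f epithelial barcodes thinned to 500 UMIs the defining genes were found together to different degrees, a description that shares the library and the rule. Lrp2 was seen in 54.1% of the 338 barcodes with Slc5a11 and in 37.1% of the 1850 without. Jam2 was seen in 58.6% of those with Lrp2 and 45.4% of those without. Slc51a was seen in 3.68% of barcodes with Lrp2 and 3.34% of those without, with overlapping intervals. It was seen in 5.23% of those with Jam2 (4.00% to 6.71%) and 1.67% of those without (0.99% to 2.62%).

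The windows around the transcription starts of 3 defining genes, from 250 bases before to 50 after, are shown as examples. All 5 defining genes were low together in the d/d epithelium. The window of Rims3 is shown because Rims3 was the gene most particular to the f/f cells by the ranking given further on. The windows are from RefSeq on GRCm38.p6, where 4 of the 5 defining genes had an entry and Arvcf had 3. They were searched on both strands for ACANNNTGT, a short form of the palindrome that the progesterone and glucocorticoid receptors bind, and for TGTTCT, a single arm of it that can overlap the former. Of 32851 windows, 6.85% held ACANNNTGT and 19.0% held TGTTCT. Windows of Arvcf and of the other genes in that ranking were searched but are not printed. Among them that of Cwh43 held both and that of Kctd13 held TGTTCT, and the others held neither. The Slc5a11 (chr7:123214616-123214915, plus strand), Lrp2 (chr2:69585980-69586279, minus strand) and Slc51a (chr16:32487830-32488129, minus strand) windows held neither, and the Rims3 window (chr4:120854549-120854848, plus strand) held 1 ACANNNTGT, in capitals. Each is written 5′ to 3′ on the strand of its gene.
Slc5a11: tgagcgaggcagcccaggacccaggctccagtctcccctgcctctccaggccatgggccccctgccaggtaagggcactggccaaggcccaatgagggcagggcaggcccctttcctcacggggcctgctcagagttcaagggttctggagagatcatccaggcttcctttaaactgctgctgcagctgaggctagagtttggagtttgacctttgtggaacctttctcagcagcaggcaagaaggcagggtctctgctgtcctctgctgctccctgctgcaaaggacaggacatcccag
Lrp2: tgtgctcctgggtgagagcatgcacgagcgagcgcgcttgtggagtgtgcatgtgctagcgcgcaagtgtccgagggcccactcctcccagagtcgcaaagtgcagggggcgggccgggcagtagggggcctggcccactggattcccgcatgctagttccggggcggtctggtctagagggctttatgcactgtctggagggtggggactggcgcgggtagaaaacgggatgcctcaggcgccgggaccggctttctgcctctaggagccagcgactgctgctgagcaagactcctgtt
Slc51a: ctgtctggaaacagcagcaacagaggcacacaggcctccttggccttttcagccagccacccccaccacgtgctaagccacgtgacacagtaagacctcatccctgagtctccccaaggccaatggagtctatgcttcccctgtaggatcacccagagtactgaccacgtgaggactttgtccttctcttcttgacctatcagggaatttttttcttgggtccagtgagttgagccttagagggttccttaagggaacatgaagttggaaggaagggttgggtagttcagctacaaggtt
Rims3: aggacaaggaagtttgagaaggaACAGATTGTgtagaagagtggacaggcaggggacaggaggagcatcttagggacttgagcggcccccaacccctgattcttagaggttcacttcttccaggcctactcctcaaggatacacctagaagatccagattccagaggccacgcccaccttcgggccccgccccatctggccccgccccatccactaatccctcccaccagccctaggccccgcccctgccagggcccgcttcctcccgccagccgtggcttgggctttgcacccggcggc

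Genes outside the rule were first compared between Lrp2/Slc5a11 cells and Muc4/Ptpn22 cells of the f/f library, the other luminal gate, where both sets share 1 preparation. Of 4009 genes with at least 100 UMIs over both sets, 206 (5.14% of those counted) were at least 2-fold higher in the Lrp2/Slc5a11 cells and 56 (1.4%) at least 2-fold lower. The counting interval excluded no change for 134 of the 206 and for all 56. TMM scaling, which shifts these ratios by 0.13, gave 291 higher and 25 lower, and the total of 262 became 56 without Jam2 in the gate. The 36 genes of the rule and mitochondrial genes were left out of these counts. With 1302403 UMIs against 103366 on the other side, a gene high only in Muc4/Ptpn22 cells reached the minimum less easily.

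Of the 12 genes placed highest by their lower interval bound, Acot7, an acyl-CoA thioesterase, and Gstm2, a glutathione transferase, were the best counted. Acot7 stood at 1989 CPM against 590 CPM (log2 ratio 1.75, interval 1.39 to 2.14) and was found in 907 of 1204 f/f Lrp2/Slc5a11 cells. Gstm2 stood at 2426 CPM against 842 CPM (1.53, 1.22 to 1.85), and how far its probes separate the close relatives of this gene is not given in the sources used here. Rims3, a protein of secretory release sites, stood at 643 CPM against 184 CPM (1.81, 1.16 to 2.55). Mme, the membrane peptidase neprilysin, stood at 622 CPM against 96.7 CPM (2.68, 1.80 to 3.75). Pnkd stood at 276 CPM against 29.0 CPM from 3 UMIs (3.25, 1.69 to 5.54). Itga9, an integrin subunit, stood at 375 CPM against 116 CPM (1.69, 0.88 to 2.66). Each of these genes had its lowest ratio without Jam2 in the gate. There Gstm2 stood at 1.02, Mme at 1.03, Itga9 at 1.13, Acot7 at 1.20, Rims3 at 1.52 and Pnkd at 2.03. These 6 thus stayed past 2-fold, some narrowly, under all 9 processing alternatives applied to single genes.

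The other 6 of the 12 did not. Without Jam2 in the gate Secisbp2l went from 1.97 to 0.80, Tacc1, a centrosome-associated protein, from 1.30 to 0.75, and Entrep1, an endosomal membrane protein, from 1.11 to 0.80. Ankle1, a nuclease, went from 2.15 to 0.40, and its level in f/f cycling cells was 1903 CPM against 258 CPM in the Lrp2/Slc5a11 cells. Gmps, which makes GMP, and Sccpdh rested on 1 and 2 UMIs in Muc4/Ptpn22 cells. Both lay at 0.17 after thinning, where any count of 0 is set to 3 UMIs. Secisbp2l, Ankle1 and Entrep1 stayed past 2-fold under 7 of the 9 alternatives, and the other 3 under 8.

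The 12 lowest genes lay between -1.58 and -1.04. Alox15, a lipoxygenase, stood at 213 CPM against 455 CPM (-1.10, -1.55 to -0.62), and Ptgs2, the inducible cyclooxygenase, at 70.6 CPM against 193 CPM (-1.45, -2.16 to -0.68). Bst2, which tethers enveloped viruses, stood at 250 CPM against 532 CPM (-1.09), and Nlrc5, an activator of major histocompatibility class I genes, at 88.3 CPM against 232 CPM (-1.39). Without Jam2 in the gate Alox15 moved to -0.48, Ptgs2 to -0.62, Bst2 to -0.58, Vwa2 from -1.04 to -0.66 and Ube2r2, a ubiquitin-conjugating enzyme, from -1.25 to -0.87. Alox15 stayed past 2-fold under 4 of the 9 alternatives, Bst2 under 5, and Ptgs2, Vwa2 and Ube2r2 under 7 each. Phf11d (-1.58), Fam3d (-1.58), Osbpl3, an oxysterol-binding protein (-1.52), Padi1, a peptidylarginine deiminase (-1.51), Nlrc5 and Omp (-1.24) stayed past 2-fold under all 9 alternatives. Padi1 was far higher in Ltf/Clca3b cells, at 1724 CPM, than in Lrp2/Slc5a11 cells at 71.4 CPM. Osbpl3 stood at 627 CPM in Ltf/Clca3b cells against 84.5 CPM, and Nlrc5 at 443 CPM in macrophages. Sox7, a transcription factor, stood at 107 CPM against 271 CPM (-1.33) and, past 2-fold under 7 of the 9, at -0.99 when the epithelial sum had to be at least 2 and at least 2-fold above the stromal sum.

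**Figure D4:**
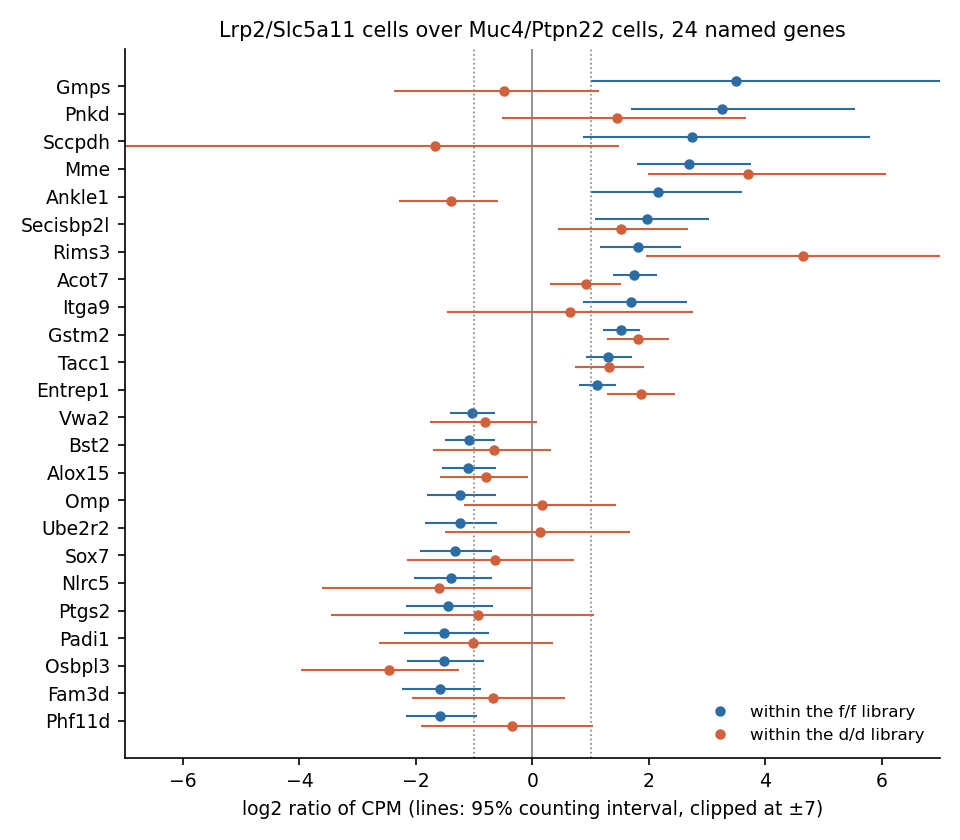
Log2 ratio of CPM in Lrp2/Slc5a11 cells over Muc4/Ptpn22 cells (x axis) for the 24 named genes (y axis), within Erbb3 f/f (blue) and Erbb3 d/d (orange). Lines are exact 95% counting intervals, clipped at the axis ends, and dotted lines mark 2-fold. Mme lies at 2.68 in f/f against 3.70 in d/d, while Ankle1 lies at 2.15 against -1.40.

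The same contrast was then read in the d/d library, whose cells did not enter the f/f values. Of the 206 genes higher in f/f, 68 had at least 20 UMIs over both d/d sets, and 45 of the 68 were also higher there, 18 of them past 2-fold. Over all 2236 genes so measured in d/d 47.4% were higher and 6.93% were higher past 2-fold. Of the 56 genes lower in f/f, 28 were measured in d/d and 23 of these were lower there, 11 past 2-fold, against 52.6% and 8.41% of all genes measured. Gstm2 had a log2 ratio of 1.81 (1.29 to 2.35) in d/d, Rims3 4.65 (1.96 to 10.0) with 16 UMIs against 1, and Mme 3.70 (1.99 to 6.08). Acot7 stood at 0.91 (0.31 to 1.52), and Itga9 (0.65) and Pnkd (1.45) had intervals that included 0. Osbpl3 was lower in both libraries, at -2.47 (-3.98 to -1.25) in d/d.

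Genes with their highest level in the f/f Lrp2/Slc5a11 cells were ranked by the ratio to the class next in order, over classes of at least 20 cells. Rims3 came first at 643 CPM, 2.57-fold above Syn2 cells. Next came Cwh43, which remodels lipid anchors of proteins, at 79.1 CPM and 2.52-fold, on 1 UMI in the class next in order, and Npas2, a transcription factor of the circadian clock, at 172 CPM and 2.31-fold. Pnkd followed at 2.11-fold, Ric1, which acts in Golgi traffic, at 596 CPM and 2.03-fold above cycling cells, and Gstm2 at 2426 CPM against 1216 CPM in ciliated cells. Enpp3, a nucleotide-cleaving enzyme of the cell surface, stood at 1691 CPM, 1.98-fold above cycling cells, and Kctd13, an adaptor of ubiquitin ligases, at 190 CPM and 1.93-fold. No ratio passed 2.57, so these genes were graded over the classes and not restricted to 1 of them. In the d/d cells Rims3 stood at 265 CPM, Ric1 at 265 CPM, Enpp3 at 1027 CPM and Gstm2 at 1673 CPM, each below its f/f level beyond counting error, as was Pnkd at 116 CPM. Cwh43 lay the other way, at 149 CPM in d/d (0.92, -0.25 to 1.90), and its interval and those of Npas2 (-1.61 to 0.63) and Kctd13 (-2.84 to 0.04) included 0. All of these genes were chosen by their high f/f level, a choice that can by itself place d/d lower. The comparison with d/d is therefore a description.

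The gene lists were counted in the f/f contrast against Muc4/Ptpn22 cells. Of 29 receptors and adaptors related to megalin 11 were counted, and 1 was at least 2-fold higher and 0 lower, with a median log2 ratio of 0.47 against a median of 0.00 over all genes counted. The member past 2-fold was Scarb2, a lysosomal membrane receptor, at 83.7 CPM against 38.7 CPM from 4 UMIs, with an interval that included 0 (-0.28 to 3.01). Lrpap1, the chaperone that megalin needs to fold, stood at 494 CPM against 252 CPM (0.98, 0.41 to 1.60), and Sort1, the sorting receptor sortilin, at 292 CPM against 174 CPM (0.74, 0.06 to 1.51). The median of the list ranged from 0.01 to 0.98 over the alternatives.

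The fixed lists were then counted, against 5.14% of all genes counted higher and 1.4% lower past 2-fold. Of 38 cell junction genes 25 were counted and none passed 2-fold in either direction (median 0.05), with Nectin2 highest at 0.87 and Jup lowest at -0.57. Of 7 counted genes for inositol, bile acid and steroid conjugate transport, 0 were higher and 1 was lower past 2-fold, Isyna1, which makes inositol phosphate (-1.05, -1.74 to -0.29). Of 39 counted solute carriers, a group of genes so named that was added after the lists were written, 2 were higher and 2 lower past 2-fold. The higher ones were Slc7a4 (1.57) and the ascorbate transporter Slc23a1, at 479 CPM against 223 CPM (1.11, 0.51 to 1.77). The lower ones were the mitochondrial carrier Slc25a22 (-1.22) and Slc35f5 (-1.06). Of 12 counted proliferation genes outside the rule, 5 were higher and 0 lower past 2-fold (median 0.61, range over the alternatives -0.15 to 0.74), among them Rrm2 (2.13) on 2 UMIs in Muc4/Ptpn22 cells. The rule held a cell's UMIs of the cycling set below those of its own set. This limit can differ between the gates, so the count is a description. After thinning to 500 UMIs any UMI of the proliferation list was seen in 39.4% of f/f Lrp2/Slc5a11 cells, 38.8% of Muc4/Ptpn22 cells and 40.7% of stromal cells. It was seen in 98.3% of cycling cells, which the rule chose by mitotic genes.

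Against the same 5.14% and 1.4%, of 15 counted progesterone response genes 0 were higher and 2 lower past 2-fold, Alox15 and the transcription factor Cebpd (-1.42). Of 10 counted genes of lipid mediators 1 was higher, the prostaglandin receptor Ptger4 (1.49, on 4 UMIs in the Muc4/Ptpn22 cells), and 2 were lower, Ptgs2 and Alox15. None of 10 luminal, 12 receptivity, 7 luminal fluid, 7 immediate early and heat shock, 6 estrogen response, 5 retinoid, 4 ErbB or 2 vitamin D and calcium genes counted passed 2-fold, nor did the glandular gene counted, Cited4 (0.37).

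Against f/f Syn2 cells, a contrast added after the data were seen, 370 of 4405 genes (8.4%) were at least 2-fold higher in Lrp2/Slc5a11 cells and 185 (4.2%) lower. Here 7 of 10 luminal genes were higher and 0 lower (median 1.49), and the lowest of the 10, Krt18, stood at -0.03. Lpar3, a lysophosphatidic acid receptor, stood at 93.7 CPM against 7.83 CPM (3.58, 1.70 to 6.64), Wnt11 at 389 CPM against 70.5 CPM (2.46, 1.79 to 3.23) and Calb1 at 2025 CPM against 294 CPM (2.78, 2.45 to 3.14). Of 16 progesterone response genes 7 were higher and 2 lower (median 0.81). Acod1, which makes itaconate, was higher at 2.94 and Sgk1, a kinase that raises epithelial sodium uptake, at 2.45 (878 CPM against 161 CPM). Zbtb16, a transcription factor, was lower at -2.48 and Klf9 at -1.68. Members of this list below the UMI minimum were not counted. Of these Ihh (-1.61, -2.22 to -0.98), Areg (-1.73, -2.73 to -0.69), Cyp26a1 (-1.77, -3.18 to -0.27) and Hsd11b2 (-1.13, -2.15 to -0.02) were lower. No uncounted member reported here had a higher level in Lrp2/Slc5a11 cells with an interval above 0. Of 9 lipid mediator genes 6 were higher and 0 lower (median 1.24), including Pla2g4a, the phospholipase that frees arachidonate, at 564 CPM against 121 CPM (2.22, 1.70 to 2.78), and Ptgs1, the constitutive cyclooxygenase (2.03). Against f/f cycling cells, also added later, 166 of 4366 genes (3.8%) were higher and 161 (3.69%) lower, and 31 of 33 proliferation genes were lower and 0 higher. The rule chose cycling cells by the mitotic genes Top2a, Tpx2, Kif11, Prc1 and Birc5, so this last count follows from the rule and is a description.

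Lrp2/Slc5a11 cells were then compared between the libraries, with 60354 UMIs in d/d against 1302403 in f/f. Of 3905 genes with at least 100 UMIs over both, 111 (2.84% of those counted) were at least 2-fold higher in d/d and 411 (10.5%) at least 2-fold lower. The counting interval excluded no change for 94 of the 111 and for 133 of the 411. When counts were simulated at these depths, 7.34% of the genes given no change still passed 2-fold in either direction. Many of the 2-fold calls can thus come from counting error. With TMM scaling, which shifts the ratios by -0.16, 54 were higher and 540 lower. Nearly all UMIs behind the minimum came from f/f, so genes low in d/d passed it more readily than genes high in d/d, and with a minimum of 20 UMIs the split turned to 1171 higher and 884 lower. By interval alone 178 genes were above and 197 below no change. The balance of higher and lower genes is therefore not a result. The median log2 ratio was -0.06 with an SD over genes of 0.71.

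Cbs, cystathionine beta-synthase, placed highest, at 646 CPM (39 UMIs) in d/d against 56.1 CPM (73 UMIs) in f/f, a log2 ratio of 3.53 (2.93 to 4.11). It was found in 18 of 68 d/d cells and 50 of 1204 f/f cells. Zbtb16 stood at 414 CPM against 84.5 CPM (2.29, 1.61 to 2.93), in 15 d/d and 93 f/f cells. In Muc4/Ptpn22 cells Cbs was 74.1 CPM (7 UMIs) in d/d and 19.3 CPM in f/f. Zbtb16 lay the other way there, at 21.2 CPM (2 UMIs) in d/d and 67.7 CPM in f/f. In f/f both genes were highest in Syn2 cells, Cbs at 478 CPM and Zbtb16 at 470 CPM. The glandular markers were at 0 UMIs in the d/d cells, with an upper bound of 61.1 CPM. That bound lies above their sum of 46.1 CPM in the f/f cells. Without Jam2 in the gate, which left 26 d/d cells, Cbs moved to 4.78 and Zbtb16 to 3.34, and the part of mixed barcodes in these values was not tested.

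Lbp, a binding protein for bacterial lipopolysaccharide, stood at 2452 CPM in d/d against 884 CPM (1.47, 1.21 to 1.72) and was found in 52 of 68 d/d and 544 of 1204 f/f cells. Its level in Muc4/Ptpn22 cells was 2055 CPM in d/d and 687 CPM in f/f, so it was higher in the d/d library in both gates. Kif5c, a kinesin motor, stood at 1292 CPM against 455 CPM (1.51, 1.15 to 1.85), while in Muc4/Ptpn22 cells it was 233 CPM in d/d and 493 CPM in f/f. Ppp2r2b, a phosphatase subunit, stood at 298 CPM against 76.8 CPM (1.96, 1.15 to 2.69), and in Muc4/Ptpn22 cells it was 201 CPM in d/d and 87.1 CPM in f/f. These 3, Cbs and Zbtb16 stayed past 2-fold under all 9 alternatives.

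The other 7 of the 12 highest lost 2-fold under 1 alternative each. Tnfrsf19, a receptor of the tumour necrosis factor family, was 613 CPM against 206 CPM (1.57) and 0.03 without Jam2, and Evl, an actin regulator, was 431 CPM against 130 CPM (1.73), 0.99 without Jam2, and 886 CPM in f/f macrophages. Fgf1, a growth factor, was 398 CPM against 124 CPM (1.68) and Unc5cl 464 CPM against 150 CPM (1.62), and both lay at 0.93 and 0.91 without Lrp2 in the gate. Slco2a1, the prostaglandin transporter, was 265 CPM against 81.4 CPM (1.70), with 7 of its 16 d/d UMIs in 1 cell, and lay at 0.62 after thinning. Brwd1 was 762 CPM against 325 CPM (1.23) and 0.84 after thinning. Prxl2a was 249 CPM against 73.7 CPM (1.75), 0.99 with the stricter epithelial sum, and 595 CPM in f/f Ltf/Clca3b cells. In Muc4/Ptpn22 cells Tnfrsf19 was 625 CPM in d/d and 203 CPM in f/f, and Evl 455 CPM and 135 CPM. Unc5cl, Brwd1, Prxl2a and, on 5 d/d UMIs, Fgf1 were also higher in d/d there. Slco2a1 lay the other way, at 84.7 CPM in d/d and 106 CPM in f/f Muc4/Ptpn22 cells.

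Among the lowest, of which 11 are given, Sgk1 had most UMIs, at 265 CPM (16 UMIs) in d/d against 878 CPM (1143 UMIs) in f/f (-1.73, -2.54 to -1.02). It was found in 14 of 68 d/d and 635 of 1204 f/f cells, and in Muc4/Ptpn22 cells it was 148 CPM in d/d and 590 CPM in f/f. Without Jam2 in the gate it stood at -2.87. Cwc22, a splicing factor, stood at 166 CPM against 630 CPM (-1.93, -2.99 to -1.04), and Mtr, methionine synthase, at 133 CPM against 478 CPM (-1.85, -3.07 to -0.86). Zcchc10 stood at 116 CPM against 542 CPM (-2.22), Itga9 at 82.8 CPM against 375 CPM (-2.18), Slc36a1, a proton-coupled amino acid transporter, at 33.1 CPM against 319 CPM (-3.27, -6.32 to -1.40), and Tmod1, which caps actin filaments, at 33.1 CPM against 283 CPM (-3.09, -6.14 to -1.23). These 7 stayed past 2-fold under all 9 alternatives, and Slc36a1 and Tmod1 rested on 2 d/d UMIs each. In Muc4/Ptpn22 cells Cwc22 was 84.7 CPM in d/d and 600 CPM in f/f, and Zcchc10 74.1 CPM and 580 CPM. Both were thus lower in the d/d library in both gates. Itga9, Slc36a1 and Tmod1 were also lower in d/d than in f/f Muc4/Ptpn22 cells, on few UMIs.

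The remaining 4 had 0 or 1 UMI in d/d. Acod1 had 1 UMI in d/d against 235 in f/f (-3.44, -8.75 to -0.95) and stood at -0.73 after thinning. Cdo1, cysteine dioxygenase, had 0 UMIs against 214 in f/f. With 0 set to 3 UMIs over the d/d cells it was 3.31-fold lower, and its log2 interval ended at -1.41. On the same setting Dnajb12, a chaperone, was 2.73-fold lower (interval up to -1.14). Adipor1, an adiponectin receptor, was 2.41-fold lower, with an interval up to -0.95 that reached inside 2-fold. With the 26 d/d cells left without Jam2 in the gate, where 3 UMIs weigh more, none of these last 3 was past 2-fold, with Cdo1 at -0.55, Dnajb12 at -0.10 and Adipor1 at -0.00. Over the 9 alternatives Dnajb12 stayed past 2-fold in 8, Cdo1 in 7 and Adipor1 in 5. After thinning Cdo1 stood at -0.60 and Adipor1 at -0.04, and Adipor1 was -0.94 without Lrp2 and -0.96 with the stricter epithelial sum.

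**Figure D5:**
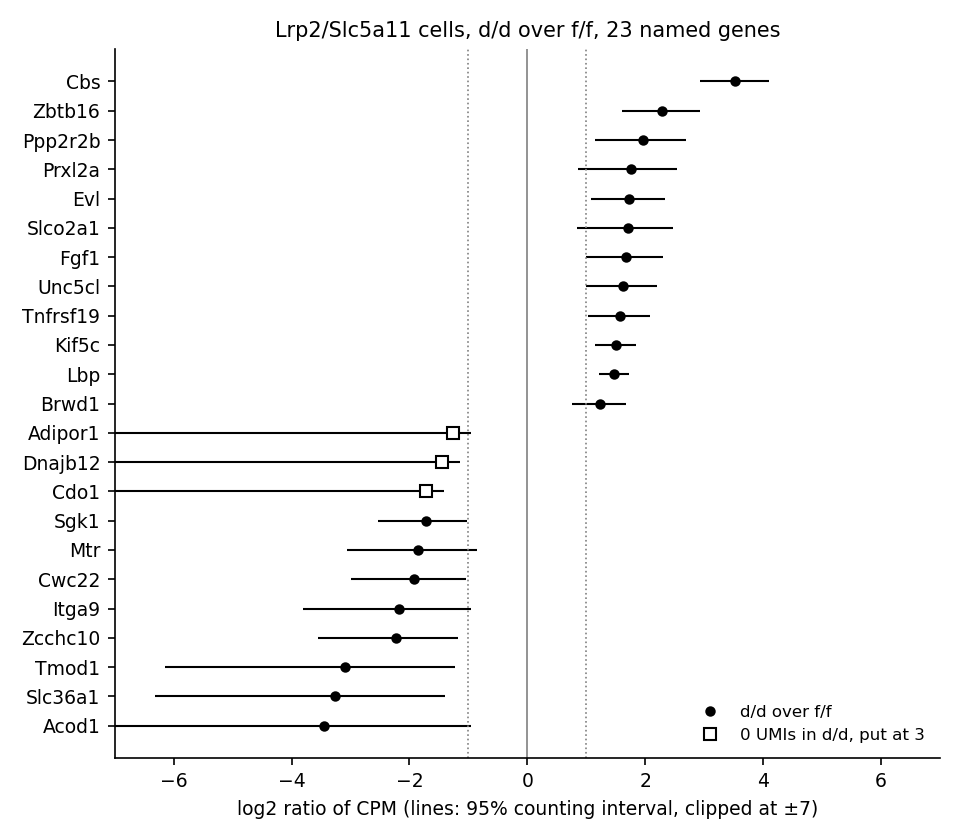
Log2 ratio of CPM in Erbb3 d/d over Erbb3 f/f Lrp2/Slc5a11 cells (x axis) for the 23 named genes (y axis). Lines are exact 95% counting intervals, clipped at the axis ends, dotted lines mark 2-fold, and squares mark genes with 0 d/d UMIs, placed at 3 UMIs. Cbs lies highest at 3.53 and Acod1, on 1 d/d UMI, lowest at -3.44.

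The lists were counted in the same way, with d/d over f/f, where 2.84% of all genes counted were higher and 10.5% lower past 2-fold. Of 14 progesterone response genes 1 was higher (Zbtb16) and 4 were lower past 2-fold, Acod1, Ptgs1 (99.4 CPM against 336 CPM, -1.75, -3.21 to -0.62), Sgk1 and Errfi1 (-1.01, with 3 d/d UMIs and an interval that included 0). The median was -0.33, and it ranged from -1.02 to 0.01 over the alternatives. Pgr, the progesterone receptor, stood at 249 CPM against 423 CPM (-0.77, -1.61 to -0.03), while Calb1 stood at 0.08 (-0.19 to 0.33). Of 7 luminal fluid genes 0 were higher and 2 lower (median -0.48, range -1.31 to -0.17), Sgk1 and the potassium channel Kcnq1 (-1.11, interval including 0). Atp1b1, a sodium pump subunit, stood at 2154 CPM against 3093 CPM (-0.52, -0.79 to -0.27).

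Several of the counts that follow lie near those shares over all genes, such as 3 lower of 25 junction genes and 5 lower of 39 solute carriers. Of 10 luminal genes 0 were higher and 1 was lower past 2-fold, Wnt11 at 166 CPM against 389 CPM (-1.23, -2.30 to -0.34), while Il17rb, a cytokine receptor, stood at 2452 CPM against 1287 CPM (0.93, 0.68 to 1.17). Of 11 megalin-related genes 1 was higher, Sorl1 (1.09, 0.28 to 1.81), and 1 lower, Snx17 (-1.65, on 2 d/d UMIs). Of 25 junction genes 1 was higher, Pkp4 (1.02), and 3 were lower, Tjp1 (-1.26), Jup (-1.15) and Marveld2 (-1.07), each with an interval that included 0. Of 9 lipid mediator genes 1 was higher, Slco2a1, and 3 were lower, Ptgs1, Ptger4 (-1.13) and Abcc4 (-1.04). Of 7 genes for inositol, bile acid and steroid conjugate transport 1 was higher, Slco2a1, and 3 were lower, among them the sulfotransferase Sult1d1 (149 CPM against 351 CPM, -1.23, -2.37 to -0.30). Of 12 proliferation genes 2 were higher, Mcm7 (1.10, 0.34 to 1.78) and Ncapd2 (1.14, 0.03 to 2.08), and 2 lower, each on 2 d/d UMIs. The rule held UMIs of the cycling set below a cell's defining UMIs (median 6 in f/f and 4 in d/d), so this count is a description. After thinning any UMI of the proliferation list was seen in 48.5% of d/d Lrp2/Slc5a11 cells (36.2% to 61.0%), against 66.7% of d/d Muc4/Ptpn22 cells and 54.6% of d/d stromal cells. Of 5 retinoid genes 0 were higher and 1 lower, the receptor Rarg (-1.45), of 7 immediate early and heat shock genes 0 and 3, of 3 ErbB genes 0 and 1 (Errfi1), and of 39 solute carriers 1 and 5. None of 12 receptivity, 6 estrogen response or 2 vitamin D and calcium genes passed 2-fold, with Esr1, the estrogen receptor, at 812 CPM against 790 CPM (0.04, -0.41 to 0.45).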

How the data were processed

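The deposited matrices hold whole UMI counts per gene and barcode, made with Cell Ranger 9.0.0 per the file headers, from a probe-based kit for fixed cells per the labels' protocols. mm10 and GRCm39 are both listed in the submitters' processing notes with no role given, so no coordinate of the count files was used. Each library lists 19070 features. The rule genes, members, gene lists and comparisons were chosen with earlier results of these data known, and the solute carrier group and the contrasts against Syn2 and cycling cells were added after the data were seen.

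From the deposited counts, UMIs were summed per class and library in Python 3.11.15 with numpy 2.4.6, scipy 1.17.1 and pandas 2.3.3, and scaled to CPM of the class. A log2 ratio of CPM has an exact conditional binomial interval, a share a Clopper-Pearson interval and a level an exact Poisson interval, all at 95%. Because 1 library stands for each group, no test across samples was run, and genotype cannot be told apart from the library, its animals or its preparation. Genes needed 100 UMIs over both sides of a contrast, and 0 UMIs were set to 3 UMIs over the group. The 36 rule genes and mitochondrial genes were left out of counts of genes. Named genes were the 12 past 2-fold with the highest and the 12 with the lowest interval bound nearest to no change, up to 3 members of each of 15 lists at either end, and the 8 genes highest against the next class. A gene that this rule names and some list members are not reported here. Further list members were named after their values were seen. Barcodes outside the epithelial rule took the class leading with at least 2 marker UMIs, otherwise stroma where the stromal sum was above the epithelial, and were else unclassed.

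Thinning drew 500 UMIs per barcode. Scrublet in scanpy 1.11.5 called 1 doublet in each library and was not used; an alternative dropped the 5% of barcodes with the highest scores. Alternatives changed the gate, the epithelial rule, the mitochondrial limit, the UMI minimum, the fold and the scaling (TMM of edgeR 4.0.16 in R 4.3.3). The contrast scripts were tested on simulated data.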

Additional observations from a re-analysis of the deposited data

Results flagged for a closer look

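Ankle1 differed in sign between the libraries. Its log2 ratio of Lrp2/Slc5a11 over Muc4/Ptpn22 cells was 2.15 (1.01 to 3.61) in f/f and -1.40 (-2.29 to -0.59) in d/d, and the difference was not tested. The level in Lrp2/Slc5a11 cells was 258 CPM in f/f and 265 CPM in d/d, while in Muc4/Ptpn22 cells it was 58.0 CPM and 699 CPM. Ankle1 stood at 1903 CPM in f/f and 1606 CPM in d/d cycling cells, so the opposite signs came with the level in Muc4/Ptpn22 cells. The rule held a cell's UMIs of the cycling set below those of its own set, and its part in the Ankle1 levels was not tested.

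Barcodes over the mitochondrial limit entered no comparison, yet many met the gate. Of 109 such epithelial barcodes in f/f 64 were Lrp2/Slc5a11 cells (58.7%, 48.9% to 68.1%, median 5681 UMIs), and of 95 in d/d 9 were (9.47%, 4.42% to 17.2%, median 5874 UMIs). Both shares lay above those that 3 barcodes would give (2.75% and 3.16%).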

How the results depend on the processing

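The difference in the share of Lrp2/Slc5a11 cells kept its direction under all 8 alternatives. It was -47.7 to -46.6 points with a 5% mitochondrial limit, a stricter epithelial sum or high doublet scores dropped, -42.3 with at least 3 defining UMIs, -36.6 after thinning, -35.7 without Lrp2, and, under alternatives chosen after seeing the data, -33.2 without Jam2 and -40.8 with barcodes tied between epithelial and stromal sums admitted.

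Counts of genes past 2-fold moved more. Against f/f Muc4/Ptpn22 cells the 262 genes became 79 after thinning, 137 without Lrp2, 56 without Jam2, 688 and 1346 with at least 50 and 20 UMIs (58.5% higher at 20), 17 with at least 500 UMIs, and 921 at a fold of 1.5 (60.2% higher). Between the libraries the 522 genes became 121 after thinning, 1140 and 2055 with at least 50 and 20 UMIs (57.0% higher at 20), 27 with at least 500 UMIs and 1380 at a fold of 1.5. TMM scaling shifted log2 ratios by 0.13 and -0.16, and gave 291 higher and 25 lower genes in the first contrast (92.1% higher, against 78.6%) and 54 higher and 540 lower in the second (9.09% higher, against 21.3%). The cause of these moves was not tested.

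No paired analysis was possible because each group has 1 library, and leaving out a replicate gives no value for the same reason. With 60354 UMIs in 68 d/d cells, 0 UMIs there allow a level of up to 49.7 CPM.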

Other observations

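Further lists were counted in the Lrp2/Slc5a11 cells of f/f against f/f Syn2 cells, in the contrast added after the data were seen, where 8.4% of all genes counted were at least 2-fold higher and 4.2% lower. Of 5 ErbB genes 2 were higher, Egfr (2.32) and Erbb2 (1.54), which encode receptors of the same family as Erbb3, and 1 was lower, the neuregulin gene Nrg4 (-1.42). Of 5 retinoid genes 2 were higher, Stra6, the cellular importer of retinol (2.63), and Rarg (2.36), and 1 was lower, Rdh10, which oxidises retinol (-1.66). Esr1 was lower, at 790 CPM against 1653 CPM (-1.07, -1.23 to -0.90), and Pgr higher, at 423 CPM against 204 CPM (1.05, 0.64 to 1.49). Of 25 junction genes 4 were higher and 2 lower, the lower ones being Cgnl1 (-2.15) and Cldn4 (-1.54). Lrpap1, the megalin chaperone, was higher at 494 CPM against 153 CPM (1.69, 1.23 to 2.20). Of 52 solute carriers 5 were higher and 6 lower, the amino acid transporters Slc6a14 (3.18) and Slc36a1 (2.44) being among the higher ones. These 4 lists had members past 2-fold in both directions, and the share of solute carriers that were higher was near that of all genes.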
